A study of Lepidium sativum with 30 samples.

Results

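A set of 100 transcript contigs had lower abundance in garden cress seeds after 18 h with Myrigalone A (MyA) than in control seeds after 12 h, while their abundance at 12 h with MyA was not much below the control. Contigs (TC) are the assembled transcript sequences to which the reads were assigned, and the table held 48306 of them. A contig was eligible if it averaged at least 10 CPM (counts-per-million, each count being scaled by its library total) in control 12 h seeds, which 14026 contigs did. It was also required to have a MyA 12 h mean of at least 0.8 times the control 12 h mean, after adding 0.5 CPM to each mean, which left 12800 contigs. In 2135 of these every MyA 18 h library from 1 to 4 was below every control 12 h library, and the 100 with the largest ratio of control 12 h to MyA 18 h were taken. The control 12 h, MyA 12 h and MyA 18 h values therefore chose the contigs. They are given as a description, also where they are counted by an edgeR call, and no support is drawn from such counts, while the dry seed, control 6 h and MyA 6 h libraries played no part in the choice.

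The libraries were made from poly(A) RNA of whole *Lepidium sativum* seeds (genotype label FR14, Keimsprossen, Juliwa) and came as 5 libraries in each of 6 groups: seeds imbibed with 0.5 mM MyA for 6 h, 12 h and 18 h, dry seeds, and seeds imbibed without MyA for 6 h and 12 h. MyA is a dihydrochalcone phytotoxin of *Myrica gale* that delays rupture of the endosperm. There was no control at 18 h, since the study matched the MyA 18 h and control 12 h seeds by the onset of endosperm rupture, so 6 h of further imbibition and the treatment cannot be told apart in that comparison. Whole seeds were used, so a smaller share of a tissue and less RNA per cell cannot be told apart either.

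Totals per library were between 20218374 and 33609057 counts. The fifth MyA 18 h library, M18-5, stood apart and was kept out of its group's values. In it 1954 contigs of at least 5 CPM in 4 libraries were at least 4-fold above the mean of the other MyA 18 h libraries and took up 23.5% of its counts, against 1.09 to 3.56% in those 4 libraries. None of the 100 contigs was among them. The seed genes TIP3;1 (a tonoplast aquaporin of storage vacuoles), ABI3 and ABI5 (transcription factors of abscisic acid signalling) were detected in every group, with summed levels of 3.54 to 9.70 CPM in MyA 18 h libraries, 30.5 to 65.6 CPM in dry seed libraries and 9.73 to 17.0 CPM in control 12 h libraries.

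A dry seed holds transcripts stored during maturation, many of which are degraded once water is taken up, while new transcripts accumulate in the first hours of imbibition as metabolism restarts. A second change follows as the testa and then the endosperm rupture and the radicle begins to grow. Transcripts can therefore be stored and lost, made early and lost again, or made late. MATE transporters, also called DETOXIFICATION (DTX) proteins, are membrane carriers that move secondary metabolites, xenobiotics and hormones out of the cytosol, often in exchange for protons or sodium ions.

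Of the 100 contigs, 2 could be paired with a gene from the lists and graphs used here. The list of contigs lower at 18 h was not at hand. The study names both as MATE transporters: DTX4 (TC_39202, *Arabidopsis thaliana* AT3G21690) and DTX51 (TC_37052, AT4G29140). These names are used as the study gives them and were not checked against sequences or another gene list. In *A. thaliana* DTX51 is also known as ADP1 and has been tied to local auxin levels in growing tissue. The other 98 are given by contig ID only, and that both named ones are MATE transporters says nothing of them.

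The ratio of control 12 h to MyA 18 h means had a median of 2.09 over the 100 contigs, with quartiles of 1.97 and 2.33. It was over 2 in 70 contigs and over 3 in 4 contigs. At the limit there was no gap: contigs TC_64928 and TC_37292 were the last inside it with ratios of 1.901 and 1.900, against 1.898 and 1.896 for TC_63754 and TC_39102, which were the next ones and were left out. The 2035 other candidates continued the curve to a ratio of 1.07.

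**Figure D1:**
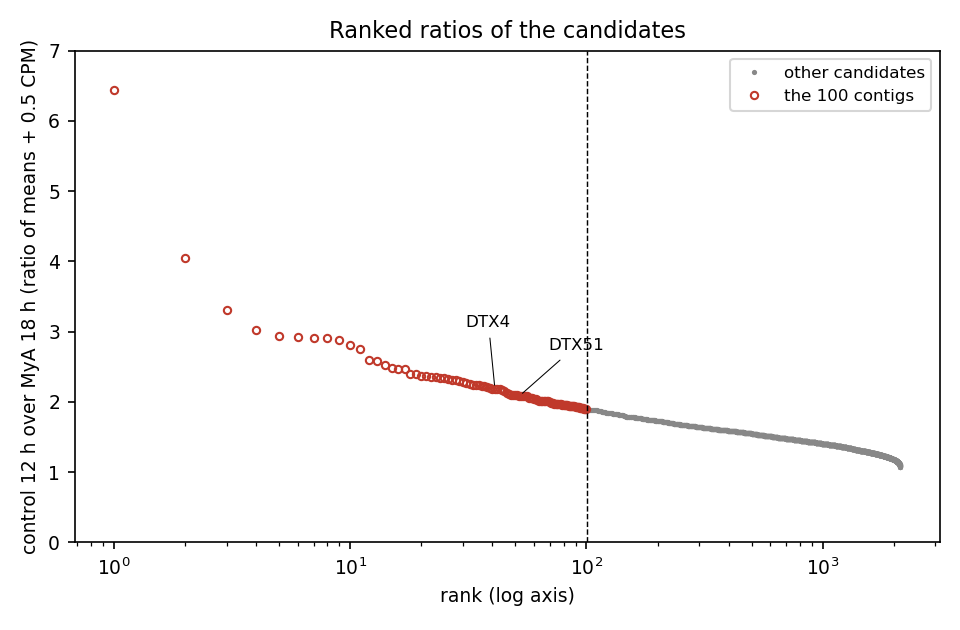
Ratio of the control 12 h mean to the MyA 18 h mean (each plus 0.5 CPM) against rank on a log axis, for the 100 contigs (open circles) and the 2035 other candidates (dots); the dashed line is the limit at rank 100. TC_25480 stands alone at 6.44, and the curve passes the limit at 1.90 without a step.

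TC_25480 had the largest ratio, 6.44. It had 4.62, 7.33, 4.21 and 3.67 CPM in MyA 18 h libraries 1 to 4, against 24.5, 26.3, 30.6, 44.6 and 47.2 CPM in control 12 h libraries. Every MyA 18 h library was thus far below the lowest control 12 h library, and M18-5, which was not used to choose it, had 6.09 CPM. At 12 h with MyA the same contig varied between 9.88 CPM in library 5 and 51.1 CPM in library 4, a range that took in all 5 control 12 h values.

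TC_35386 was next with a ratio of 4.05, and 1 library stood low in it. It had 7.66, 36.0, 43.2 and 43.9 CPM in MyA 18 h libraries 1 to 4, against 153, 147, 92.3, 106 and 171 CPM in control 12 h libraries. TC_39577, at rank 3 with a ratio of 3.31, was more even, with 8.98, 13.8, 11.9 and 6.401 CPM in MyA 18 h libraries against 32.6 to 37.7 CPM in control 12 h libraries. TC_68511 had a ratio of 3.02, and TC_45067, TC_64073, TC_68957, TC_42123, TC_41983 and TC_69112 at ranks 5 to 10 had ratios between 2.94 and 2.81.

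The MyA 18 h libraries did not contribute equally. MyA 18 h library 1 was the lowest of the 4 in 77 of the 100 contigs, against 56.3% of the 2035 other candidates and 37% of the 14026 contigs of at least 10 CPM. The 100 contigs together held 0.280% of the counts in that library and 0.381 to 0.440% in the other 3. Without library 1 the median ratio over the 100 contigs was 1.95, with a lowest ratio of 1.56, and 44 contigs were over 2. The spread among libraries was also wider in these contigs than in most: the coefficient of variation in MyA 18 h had a median of 26.8%, against 10.9% over the 14026 contigs. In control 12 h libraries it was 16.9%, against 12.05%.

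The 100 contigs as a whole held 1.67 ± 0.15% of all counts at 6 h with MyA, 0.726 ± 0.053% at 12 h (SD, n = 5 each) and 0.374 ± 0.067% at 18 h (SD, n = 4). In seeds without MyA they held 1.47 ± 0.12% in dry seeds, 1.76 ± 0.19% at 6 h and 0.810 ± 0.059% at 12 h (SD, n = 5 each). The share at 12 h was far below that at 6 h in both courses, and the MyA 18 h libraries were all below the lowest control 12 h library, 0.748%, as the choice of contigs requires.

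Per contig, the mean level had a median of 66.3, 28.5 and 14.3 CPM at 6, 12 and 18 h with MyA, and of 27.5, 66.7 and 29.98 CPM in dry seeds and at 6 and 12 h without MyA. The highest of the 6 group means was at MyA 6 h in 31 contigs, at MyA 12 h in 2, in dry seeds in 32, at control 6 h in 29 and at control 12 h in 6. The lowest was at MyA 18 h in 63 contigs and in dry seeds in 37 contigs. None had its lowest mean at 6 h or 12 h, which for the 12 h groups was fixed by the choice of contigs.

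**Figure D2:**
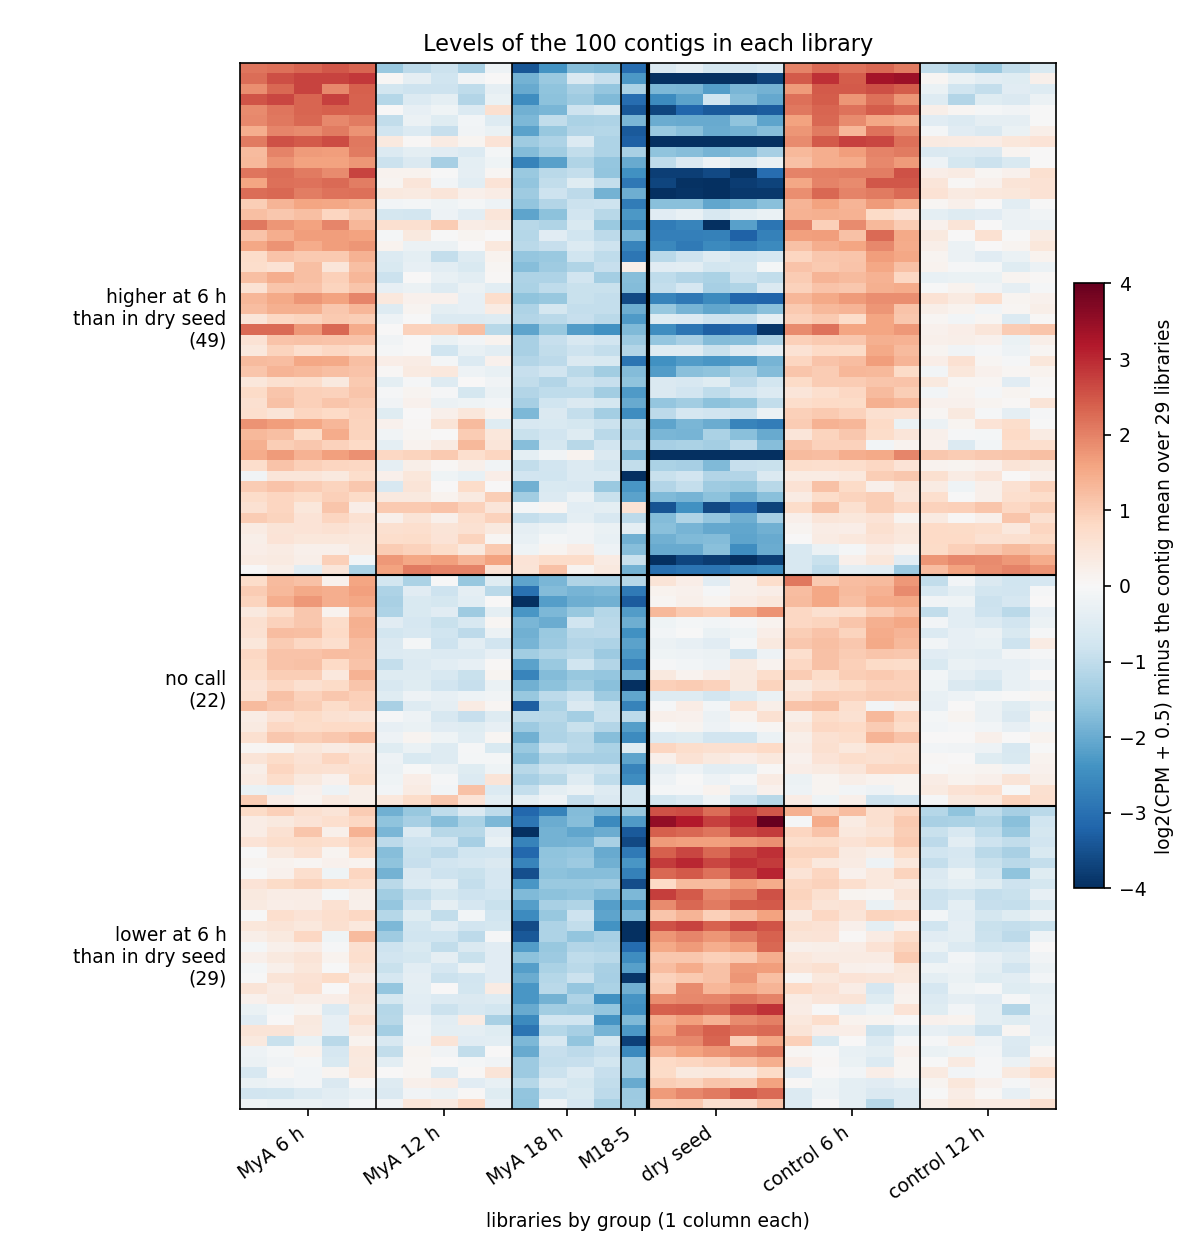
Levels of the 100 contigs (rows) in 30 libraries (columns, grouped and separated by lines), as log2(CPM + 0.5) minus the contig's mean over 29 libraries, with colours ending at 4 on either side of 0. Rows are grouped by the edgeR call of control 6 h against dry seed (49 higher, 22 without a call, 29 lower) and ordered within each by the control 12 h to 6 h ratio; the MyA 18 h columns are mostly blue in all 3 groups, while the dry seed columns are blue in the first and red in the last.

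The first question was what these transcripts did on imbibition, before the times that chose them. Here edgeR's quasi-likelihood test with Benjamini-Hochberg adjustment over 22155 contigs was used, and a call needed an adjusted p under 0.05 together with a change of more than 1 on the log2 scale. All 100 contigs passed the filter of 5 CPM in 4 libraries. At 6 h of control imbibition 49 of them were called higher than in dry seeds, where 26.5% of all tested contigs were, and 29 were called lower, where 23.4% were. Among the 2035 other candidates the shares were 28.4% higher and 7.67% lower, and among the 14026 contigs of at least 10 CPM 25.1% higher and 17.9% lower. By edgeR's scaling the 100 contigs thus held a larger share of higher calls than each of these sets. Their share of lower calls was not far from that of all tested contigs. It was above those of the other candidates and of the 14026 contigs, and 22 of the 100 had no call.

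This split moved with the scaling, since dry and imbibed seeds differ in much of their transcriptome. By CPM the median log2 ratio of control 6 h to dry seed over all tested contigs was 0.52, and by edgeR's TMM factors it was 0.14, with 1.41 and 1.02 for the 100 contigs. With library size alone 58 contigs were higher, where 38.1% of all tested contigs were, and 23 were lower, where 15.5% were. Scaled by the 3 contigs used as RT-qPCR references (PP2AA2, CAC and Hobbit), 61 were higher, where 48.8% of all tested contigs were, and 18 were lower, where 10.8% were.

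Among the 49 contigs that rose by 6 h, the median level was 91.5 CPM in control 6 h and 10.4 CPM in dry seeds. TC_68162 had 713, 980, 699.7, 1297 and 1389 CPM in control 6 h libraries, against 6.91, 7.16, 5.00, 7.21 and 9.43 CPM in dry seed libraries, a log2 fold change of 6.63 ± 0.26 (SE, edgeR adjusted p = 5.03e-09). TC_39577 had 93.2 to 126 CPM in control 6 h libraries, against 0.710 to 1.28 CPM in dry seed libraries, and TC_64073 averaged 64.7 ± 11.9 CPM in control 6 h and 0.719 ± 0.327 CPM in dry seeds (SD, n = 5 each). TC_25480, the contig of largest ratio at 18 h, was also in this group, with 66.2 to 100.5 CPM in control 6 h libraries and 1.01 to 3.45 CPM in dry seed libraries. In these 4 contigs the groups were far apart, and 13 of the 100 contigs had a log2 fold change above 4. For that count no share over all tested contigs was computed.

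Both named MATE transporters belonged to the contigs that rose early. DTX4 had 39.5, 48.2, 51.1, 68.8 and 55.4 CPM in control 6 h libraries, against 3.55, 4.18, 3.81, 4.15 and 5.58 CPM in dry seed libraries (log2 fold change 3.11 ± 0.15 SE, edgeR adjusted p = 1.53e-08). DTX51 had 41.7, 49.1, 51.4, 69.6 and 44.7 CPM in control 6 h libraries, against 6.65, 5.17, 4.30, 4.89 and 5.88 CPM in dry seed libraries (log2 fold change 2.73 ± 0.15 SE, edgeR adjusted p = 4.20e-08). The groups did not overlap for either gene, and control 6 h library 4 was the highest for both.

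The course of both after 6 h was alike in seeds with and without MyA up to 12 h, as the choice of contigs favours. DTX4 had 51.9, 51.2, 62.7, 61.6 and 49.9 CPM at 6 h with MyA, 25.5, 26.4, 20.1, 14.6 and 23.9 CPM at 12 h, and 9.27, 9.97, 13.98 and 13.9 CPM in libraries 1 to 4 at 18 h. In control seeds at 12 h it had 25.7, 33.1, 22.8, 20.5 and 29.3 CPM, a range that overlapped with MyA 12 h and not with MyA 18 h. DTX51 had 47.1, 54.7, 54.4, 42.2 and 50.2 CPM at 6 h with MyA, 13.7, 21.7, 15.1, 15.9 and 25.3 CPM at 12 h, and 8.27, 12.16, 10.1 and 10.01 CPM at 18 h, against 23.3, 21.9, 18.6, 21.0 and 23.7 CPM in control 12 h libraries.

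The MyA 18 h means of DTX4 and DTX51 were 11.8 ± 2.5 and 10.1 ± 1.6 CPM (SD, n = 4), against 4.25 ± 0.78 and 5.38 ± 0.91 CPM in dry seeds and 26.3 ± 5.0 and 21.7 ± 2.1 CPM in control 12 h seeds (SD, n = 5). By CPM both genes were thus still above their highest dry seed library in each of the 4 libraries. In M18-5 they had 2.36 and 4.76 CPM. Their ratios of control 12 h to MyA 18 h, 2.18 and 2.08, put them at ranks 41 and 52, and without MyA 18 h library 1 the ratios were 2.04 and 1.97.

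**Figure D3:**
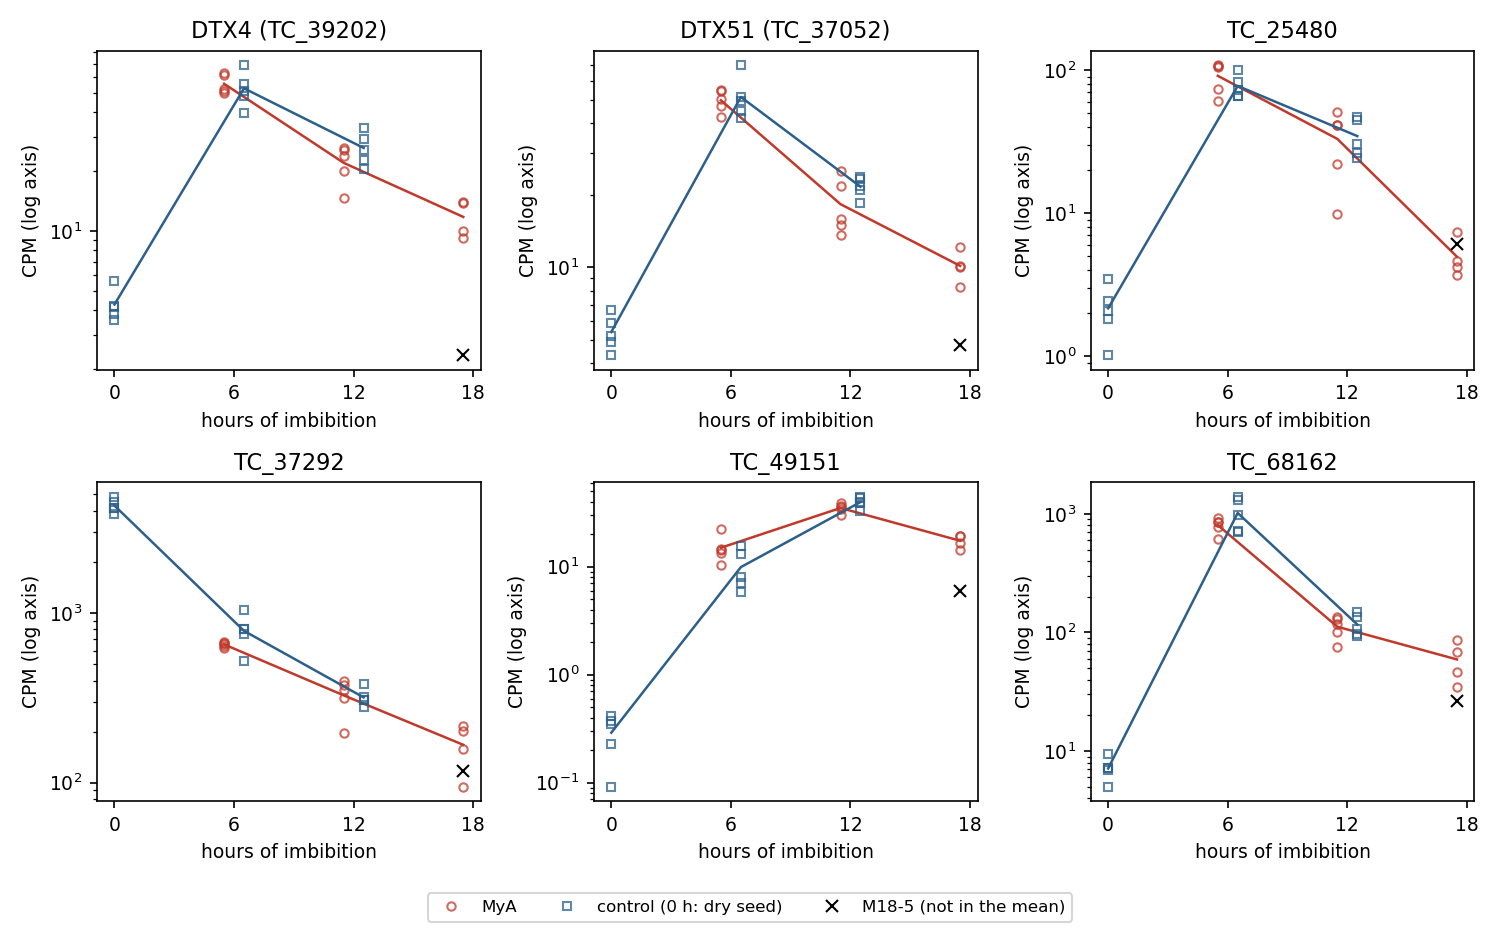
CPM on a log axis against hours of imbibition for DTX4, DTX51 and 4 other contigs, with 1 symbol per library (circles with MyA, squares without, squares at 0 h being dry seed) and lines through the group means; the cross is M18-5, which is in no mean. DTX4, DTX51, TC_25480 and TC_68162 peak at 6 h, TC_37292 is highest in dry seeds, and TC_49151 is highest at 12 h.

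A second group of 29 contigs fell on imbibition, with a median of 66.2 CPM in control 6 h and 213 CPM in dry seeds. The most abundant was TC_37292, with 1043, 803, 750, 520 and 804 CPM in control 6 h libraries, against 4154, 4830, 3810, 4516 and 4150 CPM in dry seed libraries (log2 fold change -2.96 ± 0.20 SE, edgeR adjusted p = 1.54e-07). Later it had 94.5, 201, 216 and 157 CPM in MyA 18 h libraries 1 to 4, against 306, 381, 318, 280 and 306 CPM in control 12 h libraries. This contig was the last one inside the limit. TC_70786 averaged 152 ± 40 CPM in control 6 h against 742 ± 69 CPM in dry seeds, and TC_35348 averaged 222 ± 47 CPM against 617 ± 80 CPM (SD, n = 5 each), both called lower. TC_45067, at rank 5, averaged 64.8 ± 16.1 CPM against 218 ± 17 CPM (SD, n = 5 each) and was called lower too.

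Of the 22 contigs without a call, 4 had an adjusted p of 0.05 or more and the others passed the p threshold with a smaller fold change. TC_55708, just past the fold limit and so counted among the 49, had 1527 to 2885 CPM in control 6 h libraries against 551 to 814 CPM in dry seed libraries, with a log2 fold change of 1.03 ± 0.17 (SE, edgeR adjusted p = 0.000185). TC_39677 averaged 906 ± 139 CPM in control 6 h and 984 ± 156 CPM in dry seeds (SD, n = 5 each) and had no call. TC_35386, TC_68957, TC_42123 and TC_41983 of the first 10 ranks had no call either. Their levels by CPM were higher at 6 h in each case, but by edgeR's scaling the log2 fold changes were 0.66, 0.05, 0.93 and 0.84.

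**Figure D4:**
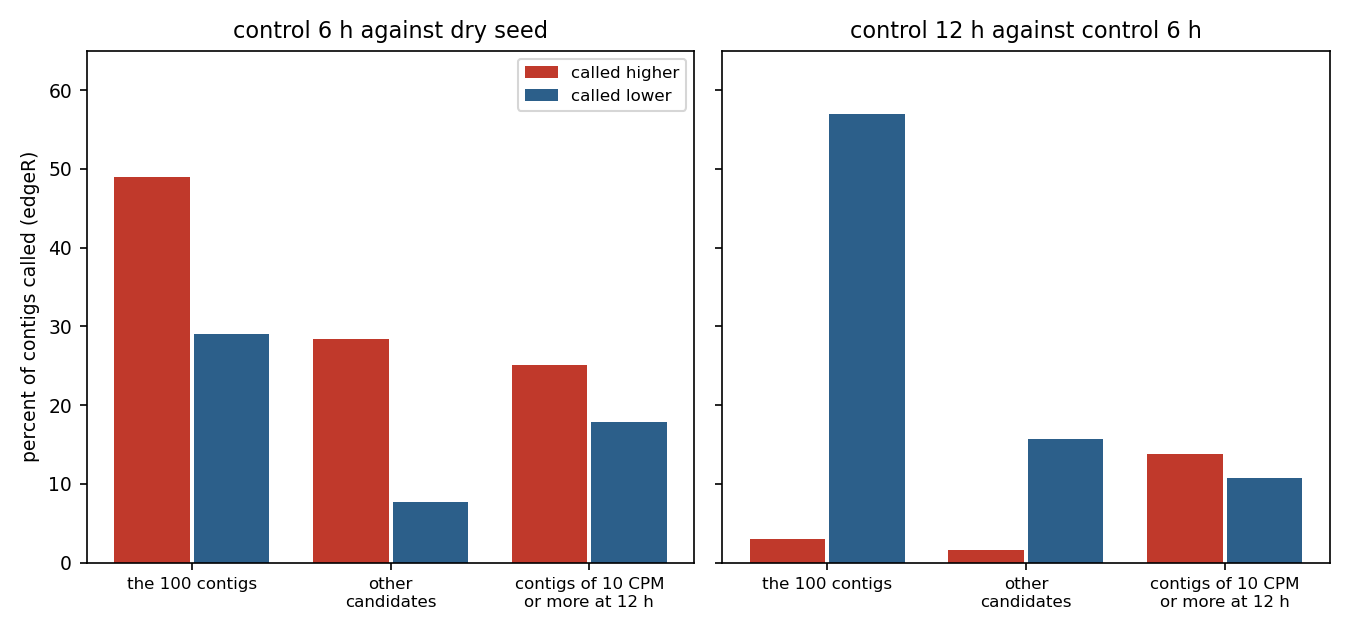
Percent of contigs called higher (red) and lower (blue) by edgeR in control 6 h against dry seed (left) and control 12 h against control 6 h (right), for the 100 contigs, the 2035 other candidates and the 14026 contigs of at least 10 CPM in control 12 h. The left panel uses no value that chose the contigs, with 49 and 29% called; in the right panel the control 12 h values were used in the choice, so its bars are a description.

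From 6 h to 12 h in control seeds the level of most of the contigs was lower, with the control 12 h values being among those that chose them. The log2 ratio of control 12 h to control 6 h had a median of -1.06 (quartiles -1.49 and -0.47), against -0.27 over the 2035 other candidates and 0.18 over the 14026 contigs of at least 10 CPM. Every control 12 h library was below every control 6 h library in 70 contigs, where 22% of the 14026 contigs had this order, and above in 5 contigs, where 34.7% did. By the edgeR call 57 contigs were lower, where 14.6% of all tested contigs were, and 3 were higher, where 12.8% were.

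The decline was seen in each of the groups defined by the dry seed level. It was ordered in this way in 36 of the 49 contigs that rose on imbibition, in 18 of the 22 without a call, and in 16 of the 29 that fell on imbibition. The median log2 ratio of control 12 h to 6 h was -1.18, -1.06 and -0.84 in these 3 groups. In the first group 9 contigs overlapped between the times and 4 were higher at 12 h, and in the third group 12 overlapped and 1 was higher.

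Of the 5 steepest declines in control seeds, 4 were of contigs that had risen on imbibition, the exception being TC_35348. TC_50131 had 11.1, 9.26, 7.63, 11.1 and 14.4 CPM in control 12 h libraries, against 88.9, 109, 102.2, 112 and 95.9 CPM in control 6 h libraries, a ratio of 0.110. With MyA its course was close to this, with 101.2 to 128 CPM at 6 h and 7.65 to 19.1 CPM at 12 h, and at 18 h it had 1.65, 3.84, 6.502 and 6.14 CPM. TC_68162 had 93.5 to 148 CPM in control 12 h libraries against 699.7 to 1389 CPM in control 6 h libraries, a ratio of 0.115. TC_64002, TC_71197 and TC_35348 followed with ratios of 0.131, 0.159 and 0.207.

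The 5 contigs with all control 12 h libraries above all control 6 h libraries were TC_37548, TC_49151, TC_55035, TC_40102 and TC_39994. TC_37548 had 12.9, 16.7, 19.99, 21.9 and 19.3 CPM in control 12 h libraries, against 3.17, 2.32, 3.86, 3.73 and 1.58 CPM in control 6 h libraries, and 7.55, 12.37, 5.59 and 6.86 CPM in MyA 18 h libraries. TC_49151 had 32.6 to 44.2 CPM in control 12 h libraries against 5.86 to 15.4 CPM in control 6 h libraries, and 16.7, 19.2, 19.2 and 14.4 CPM in MyA 18 h libraries. TC_39994 was the most abundant of the 100 contigs at 12 h, with 1132 ± 72 CPM in control 12 h seeds and 878 ± 115 CPM in control 6 h seeds (SD, n = 5 each), and 592 ± 47 CPM at MyA 18 h (SD, n = 4).

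At 12 h with MyA these 5 contigs had 0.872 to 1.01 times their control 12 h level, and the ratio of control 12 h to MyA 18 h was 1.91 to 2.34. TC_55035 averaged 12.8 ± 2.1 CPM at MyA 18 h (SD, n = 4) and 26.4 ± 3.4 CPM at control 12 h (SD, n = 5). TC_40102 was the only one of the 5 that had fallen on imbibition, with means of 20.8 CPM in control 6 h and 55.8 CPM in dry seeds, and then reached 38.6 CPM in control 12 h. TC_4474 had a control 12 h to 6 h ratio of 1.60, above the 1.29 of TC_39994, but its libraries at these times overlapped.

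With MyA the contigs were already low at 12 h. The log2 ratio of MyA 12 h to MyA 6 h had a median of -1.16, and 73 contigs had all MyA 12 h libraries below all MyA 6 h libraries, where 24.3% of the 14026 contigs had this order. Of the 100 contigs 62 were called lower by edgeR, where 14.7% of all tested contigs were, and 2 were called higher, where 19.1% were. In all 100 contigs the MyA 12 h and control 12 h libraries overlapped, which the limit of 0.8 in the choice favours. No share over the 14026 contigs was computed for this count. The ratio of MyA 12 h to control 12 h had a median of 0.885, between 0.801, near that limit, and 1.46.

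Between 12 h and 18 h with MyA the levels were lower still. The log2 ratio of MyA 18 h to MyA 12 h had a median of -0.93 and was below 0 in all 100 contigs, from -2.62 for TC_25480 to -0.65. Over the 14026 contigs of at least 10 CPM the median was -0.03. All MyA 18 h libraries were below all MyA 12 h libraries in 68 contigs, where 7.36% of the 14026 contigs had this order. By the edgeR call 27 contigs were lower, where 0.357% of all tested contigs were, but the choice itself requires a low value here and nothing follows from this count. It was 16 without MyA 18 h library 1, where 0.181% of all tested contigs were called lower. Scaled by the RT-qPCR reference contigs it was 48, where 0.636% were.

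In the comparison that chose the contigs, MyA 18 h against control 12 h, 56 of the 100 met the edgeR call, where 0.961% of all tested contigs were called lower. The count was 35 without MyA 18 h library 1, where 0.519% of all tested contigs were called lower. Scaled by the RT-qPCR reference contigs it was 96, where 1.69% were. The count describes how the contigs were chosen. Most of the contigs lie near a ratio of 2, so the fold limit of the call runs through them. By the adjusted p alone 97 were lower, where 15.3% of all tested contigs were.

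The limits on the ratios of control 12 h to MyA 18 h and of MyA 12 h to control 12 h also bound the step from 12 h to 18 h with MyA, so its values in subgroups are a description. Its median log2 ratio was -0.91 in the 70 contigs that were lower at 12 h than at 6 h in control seeds, -0.99 in the 25 whose libraries overlapped and -0.99 in the 5 that were higher. By the dry seed groups it was -0.98, -0.90 and -0.92 in contigs that rose, had no call or fell on imbibition. Regardless of direction, the MyA step from 12 h to 18 h was smaller than the control step from 6 h to 12 h in 59 contigs and larger in 41.

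**Figure D5:**
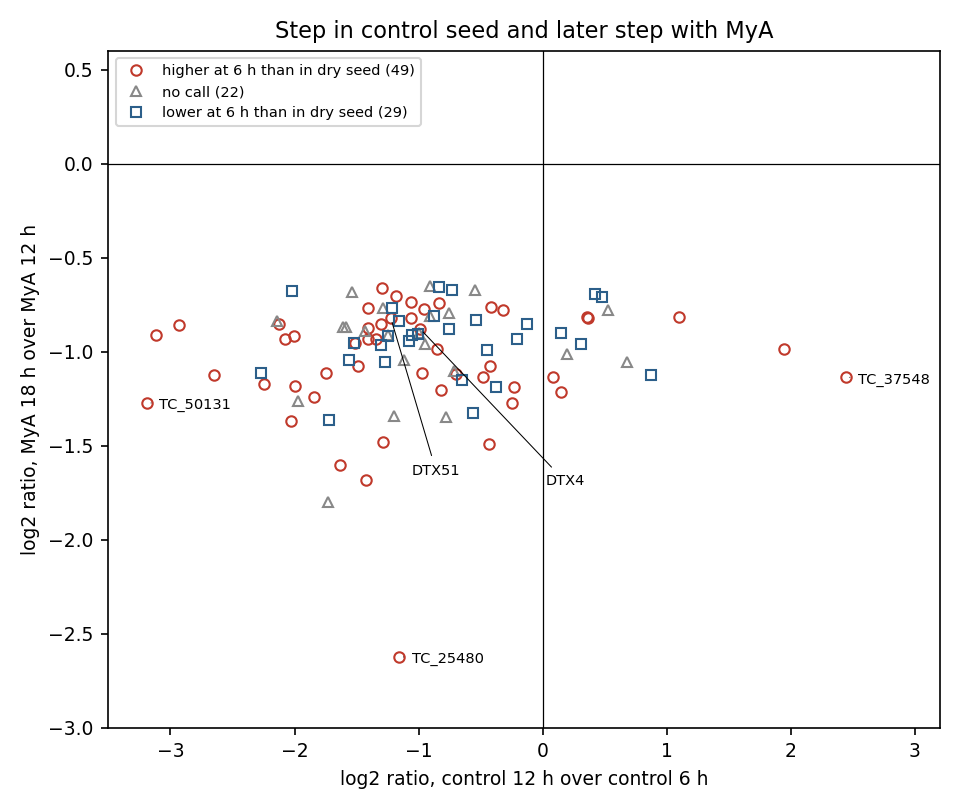
Log2 ratio of MyA 18 h to MyA 12 h against the log2 ratio of control 12 h to control 6 h, with 1 symbol for each of the 100 contigs, marked by the call of control 6 h against dry seed. All points lie below 0 on the vertical axis, most of them between -0.65 and -1.5, while the horizontal axis runs from -3.19 for TC_50131 to 2.44 for TC_37548.

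The MyA 18 h and control 12 h levels, both used in the choice, were also set against the 6 h and dry seed levels by CPM, as a description. All MyA 18 h libraries were below all control 6 h libraries in 95 contigs, where 32% of the 14026 contigs were, and above them in 1 contig, where 36.4% were. They were below all dry seed libraries in 55 contigs, where 18% of the 14026 contigs were, and above them in 25, where 56.4% were. All control 12 h libraries were below all dry seed libraries in 33 contigs, where 15.7% of the 14026 contigs were, and above them in 44, where 59.3% were.

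No early difference between MyA and control seeds was detected in these contigs. At 6 h none of the 100 contigs was called by edgeR in MyA against control seeds, where 0.0135% of all tested contigs were called higher and 0% lower, and DESeq2 called none of the 100 either. At an unadjusted p below 0.05 there were 11 of the 100, where 6.81% of all tested contigs had this, and the lowest adjusted p was 0.717. The edgeR log2 fold changes ran from -0.51 to 0.73 with a median of -0.02 and a median SE of 0.15, and 49 were above and 51 below 0. In 1 contig, TC_44928, all MyA 6 h libraries were above all control 6 h libraries, where 0.577% of the 14026 contigs were, and it was not called. In none were they all below, where 0.414% of the 14026 contigs were. The largest fold change was that of TC_37548, with 5.24, 6.13, 3.77, 7.45 and 1.87 CPM in MyA 6 h libraries against 3.17, 2.32, 3.86, 3.73 and 1.58 CPM in control 6 h libraries, and these ranges overlapped.

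M18-5 gives the only 18 h values that the choice did not use, but it is a library that stands apart. In 97 of the 100 contigs it was below every control 12 h library, where 79.2% of the 14026 contigs of at least 10 CPM were. By TMM-scaled CPM this held for 87 of the 100 and 47.6% of the 14026 contigs, and after removing the 1954 contigs enriched in M18-5 from all totals for 94 of the 100 and 69.5% of those that remained. It was below the other 4 MyA 18 h libraries in 64 contigs and above them in 6. No share over the 14026 contigs was computed for these counts. M18-5 was low in those contigs as well, with a median of 16.2 CPM against 29.9 CPM for the MyA 18 h means.

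DTX4 and DTX51 belong to gene families that the study followed, and these were set beside the 100 contigs. The 8 lists (MATE transporters, cation transport, abscisic acid, WRKY75 partners, auxin transport, auxin signalling, cytochrome P450 and amino acid transport) had 75 contigs, of which 58 passed the filter. The study chose them on these same libraries, so their direction is not independent evidence. In MyA 18 h against control 12 h 19 were called higher, where 2.43% of all tested contigs were, and 14 lower, where 0.961% were, with a median log2 ratio of -0.03 against -0.02 over all tested contigs. The list of MATE transporters had 4 called higher and 3 lower of 7 tested, DTX4 and DTX51 being 2 of the 3. At 6 h none of the 58 was called in MyA against control seeds.

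Of the 14 contigs called lower, 8 were under the level of 10 CPM in control 12 h seeds, among them both KUP9 contigs (potassium uptake), ABI5 and SIB2. Another 4 reached that level but were already below 0.8 times the control at 12 h with MyA. These were DTX45 (ratio of MyA 12 h to control 12 h 0.766), ABI3 (0.706), the auxin response factor ARF1 (0.791) and CYP78A7 (0.503), named here because they are the remainder of the count. CYP78A7, a cytochrome P450, averaged 9.58 CPM at MyA 18 h and 20.4 CPM at MyA 12 h, against 41.1 CPM at control 12 h. Of the 14 only DTX4 and DTX51 met all the conditions, and 3 auxin transport contigs that were not called (PIN1a, PIN1b and ABCB15) were candidates further down the ranking.

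Markers that the study's text places in the micropylar endosperm and the radicle were set beside the fall, since whole seeds were used. PIN2 was an exception: it was counted with the radicle here, while the study's text gives no tissue for it. The summed level of 10 endosperm contigs of 9 genes was 237 to 353 CPM in MyA 18 h libraries, against 79.1 to 92.4 CPM in control 12 h libraries, and none was at 0. The list is not uniform. SIB2 had a mean of 2.43 CPM at MyA 18 h and 5.75 CPM at control 12 h. The KUP9 contigs were lower too, with 0.989 and 3.12 CPM against 3.01 and 7.64 CPM. OPT3, a transporter involved in iron distribution, had 43.3 CPM and 1.93 CPM, and DTX35, WRKY6, BHLH129, ABCB4, UGT73B5 and UGT75D1 were higher as well. The study reports a response to MyA in these same libraries for the genes of this list. Their sum therefore cannot tell a share of the tissue from that response. The summed level of 4 radicle contigs of 3 genes was 87.8 to 104 CPM in MyA 18 h libraries, against 87.1 to 146 CPM in control 12 h libraries. That list is not uniform either. Its PIN2 contigs had means of 43.5 and 43.7 CPM at MyA 18 h and of 60.5 and 60.15 CPM at control 12 h. They made up most of the sum, which therefore rests on a gene that the text does not place in the radicle. WAT1 was higher at MyA 18 h, with 8.82 CPM against 2.05 CPM, and VIT was lower, with 1.00 CPM against 2.27 CPM. ABI3 and ABI5, counted above with the seed genes, are also placed mainly in the micropylar endosperm by the study's text, and had means of 4.55 and 0.446 CPM at MyA 18 h and 10.4 and 1.80 CPM at control 12 h. The endosperm list does not hold all genes the text places there. The part of these tissues in the lower level of the 100 contigs was not tested.

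Membership depended on the conditions chosen. With a MyA 12 h limit of 0.9 in place of 0.8, 46 of the 100 were chosen again, and neither DTX4 nor DTX51 was among them. With no such limit 65 were chosen again, and with group medians in place of means 67. With a level limit of 5 or 20 CPM in place of 10 CPM, 74 and 69 were chosen again. Leaving out 1 library at a time kept 78 to 93 of the 100.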

How the data were processed

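Poly(A) RNA of whole *L. sativum* seeds was sequenced by the authors from directional libraries, 30 in all. The authors assembled the reads, mapped them to their own contigs with BWA and counted them with HTSeq (versions not given in the sources used here), and deposited 1 table of raw counts. These counts are not normalized for depth or contig length, so levels are compared within a contig. Intervals of counting error were not needed: the members had at least 46 counts in each MyA 18 h library and at least 197 in each control 12 h library.

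CPM were computed with column totals, and ratios with 0.5 CPM added to group means. Contigs with at least 5 CPM in at least 4 of 29 libraries (22155) were tested with edgeR 4.0.16 in R 4.3.3 (glmQLFit, glmQLFTest, TMM factors) for each pair of groups, with the call given in the results. DESeq2 1.42.0 and other scalings, filters, designs and left-out libraries were alternatives, and the fits were checked on simulated counts. SE is the log2 fold change over the root of F. The labels call the 5 libraries of a group biological replicates. No contig sequence was used here, so none is printed.

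Named contigs are those with a gene name in the study, the 10 highest ranks, the 5 highest in control 12 h, the 5 largest and 5 smallest control 12 h to 6 h ratios, the 5 highest in dry seed, any called at 6 h with MyA, and the last pair inside and the first pair outside the limit. A few others are named where a count or extreme value points to them, after their values were seen. Members, lists and alternatives were chosen with earlier results of these data known.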

Additional observations from a re-analysis of the deposited data

Results flagged for a closer look

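The summed share of the 100 contigs was 1.40% of all counts in MyA 6 h library 1, against 1.71 to 1.80% in the other 4 MyA 6 h libraries, which makes this library stand apart from its group. It was the only such case in 90 groups of values examined (14 contigs and the summed share, in 6 groups each), where chance gives about 1 in 20.

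TC_46360 was the only contig of the 100 above every control 12 h library in M18-5, with 46.4 CPM in M18-5 against 27.8 to 42.8 CPM in control 12 h libraries. In the other 4 MyA 18 h libraries it averaged 15.7 CPM. M18-5 was in no comparison of the groups, and the difference was not tested.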

How the results depend on the processing

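The counts called at 6 h, in control against dry seed and in MyA against control, stayed within 1.5 times under every alternative but the following. Scaled by the RT-qPCR reference contigs, 18 in place of 29 were lower in control 6 h than in dry seed, where 10.8% of all tested contigs were. That scaling gave 96 in place of 56 lower in MyA 18 h than in control 12 h, where 1.69% of all tested contigs were. It gave 48 in place of 27 lower in MyA 18 h than in MyA 12 h, where 0.636% were. In MyA 12 h against MyA 6 h it gave 1 in place of 2 higher, where 13.9% were. Of the 3 reference contigs, Hobbit was itself a candidate. Without the fold limit 10 in place of 3 were higher in control 12 h than in control 6 h, where 32.1% of all tested contigs were. In MyA 12 h against MyA 6 h 4 in place of 2 were then higher, where 37.9% were. In MyA 18 h 97 were then lower than in control 12 h, where 15.3% were, and 69 lower than in MyA 12 h, where 3% were. Leaving out 1 library at a time gave 35 to 68 lower in MyA 18 h than in control 12 h, where 0.519 to 1.29% of all tested contigs were. It gave 16 to 35 lower in MyA 18 h than in MyA 12 h, where 0.181 to 0.821% were. Both counts and both shares were lowest without MyA 18 h library 1. The median log2 ratio of control 12 h to control 6 h was -1.20 by TMM-scaled CPM and -1.64 by the reference contigs, against -1.06. Of the 100 contigs, 46 were chosen again with a MyA 12 h limit of 0.9 and 65 with none. With M18-5 included 9 in place of 14 list contigs were lower in MyA 18 h than in control 12 h, an alternative chosen after seeing the data. The log2 fold change of control 6 h to dry seed changed sign for TC_39677 (-0.64, and 0.29 by the reference contigs) and for TC_4474 (-0.04), which was 0.48 by library size, 0.89 by the reference contigs, 0.13 with no filter, 0.11 with the filter of 5 counts, 0.039 in a single fit over all groups and -0.21 to 0.16 with 1 library left out. The cause was not tested.

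Replicate numbers did not pair the libraries in every comparison. The correlation of same-numbered deviations from the group means ran from -0.486 to 0.771 over the 6 comparisons, and none had every pair over 0.1. In MyA 6 h against control 6 h 4 of 5 pairs were over 0.1, so a partial pairing there is not excluded. In MyA 18 h against control 12 h 0 of 4 pairs were. With the replicate number as a block, 32 in place of 56 were lower in MyA 18 h than in control 12 h. The other counts of contigs called stayed within 1.5 times. Of all tested contigs, 0.406% in place of 0.961% were called lower in MyA 18 h than in control 12 h with that block.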
